A study of Mus musculus with 12 samples.

Results

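The genes described here are 50 genes of DNA replication, the cyclins, the spindle, the kinetochore and cytokinesis, read in teratomas grown from R1 mouse embryonic stem (ES) cells. They were taken by gene symbol from the 38986 genes listed in each library, 15 of them as genes of the passage from G1 into S phase (G1/S) and 35 as genes of G2 and mitosis (G2/M). All 50 passed the filter on low counts and were among the 18405 genes tested, and no member had fewer than 57 estimated counts in any library.

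The teratomas came from R1 ES cells that stably carried 1 of 4 lentiviral pEZ-Lv235 constructs with a CAG promoter, namely the vector control (ET), WT Dnmt3L, or Dnmt3L with lysine replaced by arginine at an acetylated site (K238R and K412R). All 4 groups share the endogenous Dnmt3l gene, the vector and the selection of infected cells in puromycin, and the host in each case was an 8-week-old male immunodeficient NOD-PrkdcEM1 mouse injected under the skin. RNA was taken at day 21 from teratomas of each group. The 3 libraries per group, 12 in all, are treated here as separate teratomas, with total estimated counts between 16957677 and 18546100. A teratoma is a mixture of many differentiating tissues with some host cells, and the CAG promoter of the construct is a broadly active one that is not restricted to a cell type.

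Dividing cells switch these genes on in order. E2F factors activate the genes that license and copy DNA at the passage into S phase, and later the MuvB complex with B-Myb and FoxM1 activates the genes of mitosis, while the Rb family and the DREAM complex hold them down in cells that have left the cycle. In tumours and embryonic tissue their summed transcript is commonly read as a measure of how many cells are cycling.

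The constructs were checked by Dnmt3l itself, the regulatory partner of the de novo DNA methyltransferases. It had 39, 11 and 137 counts in the ET libraries, 2941, 3643 and 3581 in WT, 35, 20 and 10 in the K238R-labelled libraries and 699, 677 and 463 in K412R, in the order of replicates 1 to 3 that is kept below. The K238R-labelled libraries therefore carried no more of the transcript than ET did, against their label, and every direction drawn from them below holds for libraries so labelled. Construct and endogenous transcript were not separated in these values.

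The regulatory sequence of the members was read from RefSeq promoters (build GRCm38.p6), which run from 250 bases before to 50 bases after each annotated start. The table held 44 promoters of 41 members. Aurkb, Ccna2, Cdc25c, Foxm1, Incenp, Kif20a, Mcm4, Spc24 and Tpx2 had no entry. The 6 stretches below, from 160 bases before to 30 bases after the start, are shown because they carry the letters in which the promoters of the replication genes and the mitotic genes differed. Capitals mark a match to the E2F site (TTTCCCGC, TTTGGCGC, TTTCGCGC or TTTGCCGC), the CCAAT box (CCAAT) or the CHR, the cell cycle homology element bound by MuvB (TTTGAA or TTTAAA), each on either strand.
Mcm3, chr1:20820283-20820472 (minus strand): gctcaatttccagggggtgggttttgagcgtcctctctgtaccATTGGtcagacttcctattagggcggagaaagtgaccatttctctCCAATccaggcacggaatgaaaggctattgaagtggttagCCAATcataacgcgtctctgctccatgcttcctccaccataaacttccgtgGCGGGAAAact
Mcm5, chr8:75109349-75109538 (plus strand): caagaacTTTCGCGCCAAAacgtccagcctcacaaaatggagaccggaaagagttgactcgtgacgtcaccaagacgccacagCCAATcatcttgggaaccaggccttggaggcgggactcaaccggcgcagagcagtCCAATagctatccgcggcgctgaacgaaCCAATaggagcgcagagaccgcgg
Mcm6, chr1:128359676-128359865 (minus strand): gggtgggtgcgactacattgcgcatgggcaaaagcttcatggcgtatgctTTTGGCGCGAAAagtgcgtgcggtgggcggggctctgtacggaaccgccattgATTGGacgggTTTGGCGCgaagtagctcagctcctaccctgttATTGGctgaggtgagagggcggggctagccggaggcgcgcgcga
Ccnb2, chr9:70421525-70421714 (minus strand): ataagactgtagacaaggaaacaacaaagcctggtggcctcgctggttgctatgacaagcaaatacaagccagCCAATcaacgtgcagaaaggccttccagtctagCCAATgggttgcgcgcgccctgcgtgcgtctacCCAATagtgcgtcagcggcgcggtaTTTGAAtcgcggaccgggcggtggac
Cdc20, chr4:118437314-118437503 (minus strand): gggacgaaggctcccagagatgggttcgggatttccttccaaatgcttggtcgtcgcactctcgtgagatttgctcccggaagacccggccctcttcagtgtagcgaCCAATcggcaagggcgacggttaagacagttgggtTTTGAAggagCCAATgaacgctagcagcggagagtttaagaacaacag
Cdk1, chr10:69352883-69353072 (minus strand): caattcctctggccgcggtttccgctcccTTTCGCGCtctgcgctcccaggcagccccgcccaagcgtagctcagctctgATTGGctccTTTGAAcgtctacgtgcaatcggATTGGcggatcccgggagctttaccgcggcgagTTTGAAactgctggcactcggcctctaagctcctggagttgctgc

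Mcm3, Mcm5 and Mcm6, subunits of the replicative helicase, held E2F letters together with CCAAT boxes in these windows. In Mcm6, E2F matches at positions -110 and -106 overlapped, as did those at -153 and -149 in Mcm5, with positions counted from the start and without a 0. Ccnb2 and Cdc20 held CHR letters near the start, at 5 and -18, with CCAAT boxes nearby. The promoter of Cdk1, the kinase of mitosis, held CHR, CCAAT and E2F letters.

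Over all members with an entry, the CHR was present in 25 of 29 promoters of G2/M genes (86.2%), in 4 of 15 promoters of G1/S genes (26.7%) and in 27.6% of all 32851 promoters of the same length. The E2F letters showed the opposite order, with 6 of 15 promoters of G1/S genes (40%), 1 of 29 of G2/M genes (3.45%) and 2.26% of all promoters. The 7 members with E2F letters were Cdc6, Cdt1, Mcm3, Mcm5, Mcm6 and Mcm7 from G1/S and Cdk1 from G2/M. CCAAT boxes were common to both phases, in 22 of 29 promoters of G2/M genes (75.9%) and 9 of 15 of G1/S genes (60%), against 37.4% of all promoters. A match is a description of the letters and does not show that a factor was bound.

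**Figure D1:**
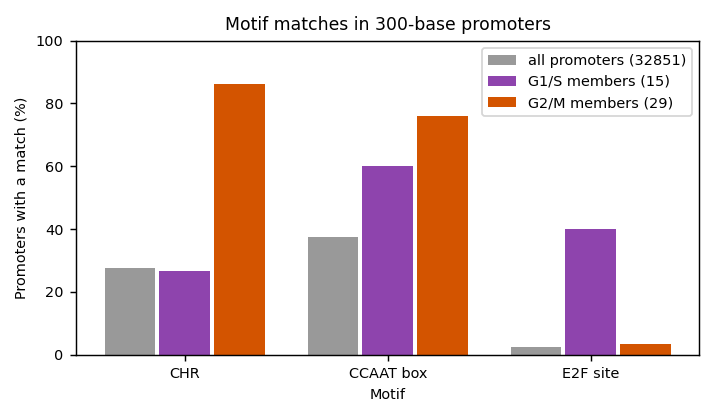
Share of promoters (%, vertical axis) with at least 1 match to the CHR, the CCAAT box or the E2F site, for all 32851 RefSeq promoters, 15 promoters of G1/S members and 29 promoters of G2/M members. The CHR bar is tallest for G2/M members (86.2%) and the E2F bar is tallest for G1/S members (40%).

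The 50 genes moved as a block from library to library. ET replicate 3 held the highest level among the 12 libraries for 50 of 50 members, and ET replicate 2 was the lowest of the ET libraries for 50 of 50. Among the WT libraries, replicate 1 was the highest for 50 of 50 and replicate 3 the lowest for 43. Of the K238R-labelled libraries, replicate 1 was the highest for 50 members and replicate 2 the lowest for 48. K412R showed less of an order, since its replicates 1, 2 and 3 were the highest of the group for 30, 12 and 8 members.

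Summed over the members and scaled to CPM, the count relative to the TMM-scaled library size, the level was 3453, 2315 and 5191 CPM in the ET libraries, 2459, 1645 and 1435 in WT, 3486, 2076 and 2607 in the K238R-labelled libraries and 2793, 2585 and 2588 in K412R. As a share of all estimated counts the members took between 0.137% in WT replicate 3 and 0.512% in ET replicate 3. The WT and ET groups overlapped, because WT replicate 1 lay above ET replicate 2. For 38 of the 50 members ET replicate 2 was below WT replicate 1, with a median log2 ratio of -0.13. The groups overlapped through these 2 libraries, so counts that rest on them are given below with and without them. On the log2 scale, ET replicate 3 lay about as far above ET replicate 1 as ET replicate 2 lay below it. WT replicate 1 and ET replicate 2 were picked out by their levels in earlier results of these data. Leaving them out widens the WT to ET difference by that choice, so the counts without them are a description and no support for it.

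The mean of the members' log2 CPM, set to 0 at the ET mean, was 0.00, -0.58 and 0.57 in the ET teratomas and -0.45, -1.10 and -1.30 in WT, which gave -0.95 ± 0.44 (SD, n = 3) in WT against an SD of 0.57 in ET. It was -0.39 ± 0.37 in the K238R-labelled libraries and -0.39 ± 0.06 in K412R, so that the spread between teratomas was widest in ET and narrowest in K412R. That shared level carried 91.8% of the gene-centred variation of the 50 genes. A member's SD over the 12 libraries had a median of 0.51 on the log2 scale, and 0.13 was left after the shared level was taken out. Highest over lowest library, the ratio for a member had a median of 3.65 and lay between 2.44 and 6.42.

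**Figure D2:**
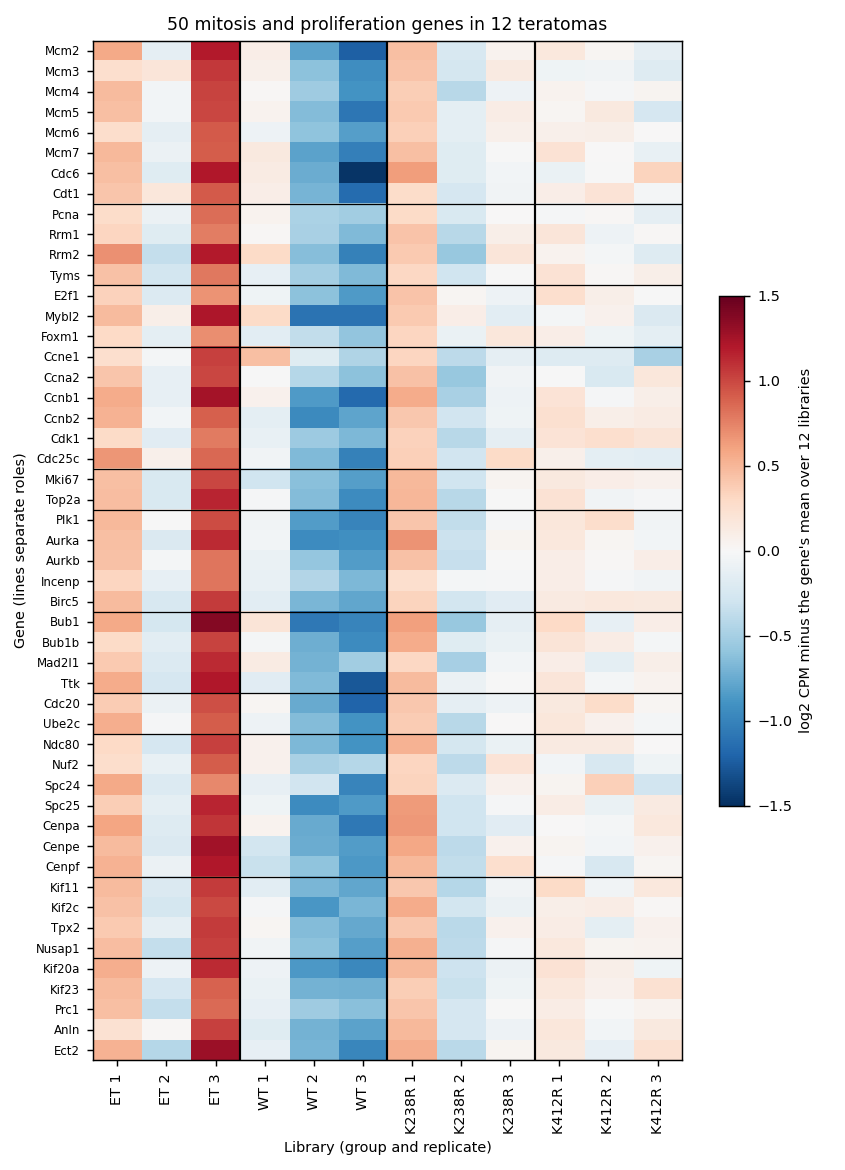
Log2 CPM of each of the 50 genes (rows, grouped by role) minus its own mean over the 12 libraries (columns, by group and replicate), on a colour scale from blue (lower) to red (higher). The column of ET replicate 3 is red and those of WT replicates 2 and 3 are blue across the roles, while WT replicate 1 and ET replicate 2 are pale.

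The comparison of WT with ET sets teratomas from cells with added Dnmt3L beside those from cells with the vector control. Each construct was carried by its own infected and selected cells, so the construct and the cells cannot be told apart. Transcripts of all 50 members had a lower fitted mean in WT, by a median log2 fold change of -1.0 against -0.01 over all genes tested, and the members ranged from -1.26 to -0.50. None passed the adjusted threshold with edgeR's quasi-likelihood test (0 of 50, adjusted p between 0.100 and 0.262), where 0.0435% of all genes were called lower. At an unadjusted p under 0.05, 49 of 50 were lower, against 15.1% of all genes, and 25 of 50 also met a 2-fold criterion, against 2.76%. Because the members moved as a block, these counts are not 50 separate observations. Fewer dividing cells and less of these RNAs per cell cannot be told apart in whole tumours.

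The calls turned on the tool and on those 2 libraries. DESeq2 called 43 of the 50 members lower, where it called 6.08% of all genes lower. With edgeR, 49 members were called without ET replicate 2 (14.7% of all genes lower), 36 without WT replicate 1 (4.3%) and 50 with neither of them (18.3%), when the median was -1.51. Without ET replicate 3, the library with the highest levels, no member was called, 27 had an unadjusted p under 0.05 (6.57% of all genes lower) and the median was -0.67. In a fit of the 2 groups alone no member was called either (adjusted p between 0.256 and 0.377, edgeR).

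The licensing and helicase genes open S phase by loading and firing the Mcm helicase at origins. All 8 had lower fitted means in WT and none was called, with a median log2 fold change of -1.0. Mcm2, a helicase subunit, stood at 94.9, 57.9 and 146 CPM in ET, at 68.4, 36.6 and 27.2 in WT, at 87.1, 53.9 and 66.1 in the K238R-labelled libraries and at 70.9, 65.0 and 58.3 in K412R. The WT libraries overlapped those of ET through replicate 1, and the log2 fold change was -1.17 (SE 0.35, adjusted p = 0.110, edgeR). Mcm5 lay just inside the 2-fold criterion at -1.02, with 73.8, 52.3 and 108 CPM in ET and 56.1, 34.2 and 25.4 in WT. Mcm3, another subunit, and Cdt1, which loads the helicase with Cdc6, were the only ones of the 8 for which every WT library lay below every ET library. Mcm3 was at 96.0, 91.5 and 169 CPM in ET and at 85.1, 52.9 and 42.2 in WT. The remaining subunits Mcm4, Mcm6 and Mcm7 were between -0.97 and -0.88.

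The genes of the fork and of nucleotide supply differed least among the replication genes, with a median of -0.75 and none of 4 at 2-fold. Pcna, the sliding clamp of the DNA polymerases, had 106, 82.1 and 156 CPM in the ET libraries, 90.6, 63.1 and 60.6 in WT, 106, 74.3 and 87.7 in the K238R-labelled libraries and 86.2, 88.2 and 79.7 in K412R. Its log2 difference of WT from ET was -0.69 (SE 0.22, adjusted p = 0.112). Rrm2, the small subunit of ribonucleotide reductase, lay just outside the 2-fold criterion at -0.98 and had 59.3, 28.7 and 84.0 CPM in ET and 45.0, 23.7 and 18.2 in WT. Rrm1, the large subunit, and Tyms, thymidylate synthase, were at -0.70 and -0.79.

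The 3 transcription factors that drive the program also had lower fitted means in WT. E2f1, an activator of the G1/S genes, stood at 12.4, 8.47 and 15.6 CPM in ET and 9.34, 6.41 and 5.42 in WT (log2 fold change -0.79, SE 0.25, adjusted p = 0.110). Mybl2, which encodes B-Myb, had 32.1, 24.5 and 53.4 CPM in ET but 28.2, 10.7 and 10.7 in WT, so that WT replicates 2 and 3 held the same level and replicate 1 lay among the ET libraries (log2 fold change -1.15, SE 0.37). Foxm1 had the smallest SE of the 50 members, at 54.6, 40.2 and 71.9 CPM in ET and 39.8, 34.5 and 29.5 in WT. All of its WT libraries lay below all of its ET libraries, although its log2 fold change of -0.68 (SE 0.19, adjusted p = 0.105) was among the 3 nearest to 0 of the 50 members.

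Among the cyclins, the difference was smallest for the one that acts at the G1/S passage. Ccne1, which encodes cyclin E1, had 15.6, 12.7 and 26.5 CPM in the ET libraries, 17.7, 11.5 and 9.53 in WT, 16.3, 9.95 and 11.9 in the K238R-labelled libraries and 11.4, 11.4 and 9.30 in K412R. It was the member with the smallest difference, -0.50 (SE 0.29), and the only one that missed an unadjusted p of 0.05. Ccna2, cyclin A2 of S and G2, stood at 72.3, 49.97 and 108 CPM in ET and 53.8, 40.3 and 35.5 in WT (-0.83, SE 0.29). Ccnb1, cyclin B1 of mitosis, stood at 77.5, 48.3 and 125 in ET and 54.9, 29.3 and 23.4 in WT (-1.22, SE 0.38, adjusted p = 0.110). No difference among the 3 cyclins was tested. Cdk1 itself was at 52.4, 38.1 and 74.1 CPM in ET and 39.8, 29.4 and 26.9 in WT, a log2 fold change of -0.78 (SE 0.24). Cdc25c, the phosphatase that activates it, and Ccnb2 had every WT library below every ET library.

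The proliferation marker Mki67, whose protein coats mitotic chromosomes, was at 497, 311 and 728 CPM in the ET libraries, 295, 235 and 206 in WT, 510, 295 and 375 in the K238R-labelled libraries and 405, 392 and 381 in K412R. Its WT libraries lay below all ET and K412R libraries, and the WT against ET log2 fold change was -1.06 (SE 0.27, adjusted p = 0.100). Top2a, which untangles sister DNA, had 261, 162 and 417 CPM in ET and 187, 121 and 98.4 in WT. WT replicate 1 lay above ET replicate 2 for this gene, and its log2 fold change was -1.05 (SE 0.33).

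The mitotic kinases and the chromosomal passenger complex, which corrects attachments of chromosomes to the spindle, had a median of -1.04. Plk1, the polo kinase of mitotic entry, stood at 51.6, 36.6 and 72.9 CPM in ET and 35.6, 20.7 and 18.6 in WT, with no overlap (-1.10, SE 0.29, adjusted p = 0.103). Aurkb, the kinase of the passenger complex, also had no overlap, with 30.1, 21.7 and 38.7 CPM in ET and 20.8, 14.9 and 12.4 in WT (-0.91, SE 0.25). Birc5, survivin of the same complex, stood at 36.5, 22.3 and 54.4 CPM in ET and 23.6, 16.3 and 15.3 in WT, where 1 WT library exceeded ET replicate 2. Aurka, the kinase of spindle poles, was at -1.13 and Incenp, the scaffold of the passenger complex, at -0.77.

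The spindle checkpoint and the kinetochore held the members farthest from 0. Ttk, the Mps1 kinase that starts the checkpoint, was the member farthest below ET, at 28.8, 16.5 and 45.2 CPM in ET and 17.4, 12.4 and 8.16 in WT (-1.26, SE 0.34, adjusted p = 0.103). Cenpf, of the outer kinetochore, stood at 162, 106 and 258 CPM in ET and 89.5, 74.0 and 62.2 in WT (-1.22, SE 0.29, adjusted p = 0.100). Cenpe, the kinesin of the kinetochore, was close to it at -1.22 (SE 0.33), from 79.2, 49.2 and 136 CPM in ET to 47.3, 34.1 and 32.0 in WT. Both kinetochore genes had every WT library below every ET library.

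Bub1, another checkpoint kinase, had 27.9, 15.7 and 49.0 CPM in ET and 21.5, 8.90 and 9.47 in WT, a difference of -1.21 with the largest SE of the 50 members (0.44). Cenpa, the histone H3 variant of the centromere, was at 28.7, 16.6 and 39.8 CPM in ET and 19.7, 11.2 and 9.06 in WT (-1.09, SE 0.35). Nuf2, of the microtubule-binding Ndc80 complex, was the kinetochore gene nearest to 0 (-0.68, SE 0.25), with 36.1, 27.7 and 56.1 CPM in ET and 31.2, 21.5 and 22.3 in WT. Its partners Ndc80, Spc24 and Spc25 were at -0.90, -0.83 and -1.12, so the 4 subunits of the complex had different fitted changes whose differences were not tested. The checkpoint proteins BubR1 and Mad2 (Bub1b and Mad2l1) were at -0.98 and -0.86.

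Genes of mitotic exit and cytokinesis also had lower means in WT. Cdc20, which activates the anaphase-promoting complex, stood at 36.5, 26.3 and 54.7 CPM in ET and 28.6, 16.6 and 12.2 in WT (-1.03, SE 0.31), and Ube2c, its ubiquitin-conjugating enzyme, was at -1.02 with no overlap between the groups. Kif11, the kinesin that drives spindle poles apart, had 75.9, 47.2 and 114 CPM in ET and 49.0, 34.1 and 32.0 in WT (-1.04, SE 0.30). The other spindle genes, Kif2c, Tpx2 and Nusap1, lay between -0.95 and -0.93. Prc1, which bundles the central spindle, was at 78.3, 44.8 and 103 CPM in ET and 52.6, 39.7 and 36.9 in WT (-0.81, SE 0.26). Of the remaining cytokinesis genes, Kif20a, Kif23 and Ect2 were at -1.18, -0.92 and -1.18, and Anln, the anillin of the cleavage furrow, at -1.03 with no overlap. In all, 12 of 50 members had every WT library below every ET library, against 10.5% of all genes.

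**Figure D3:**
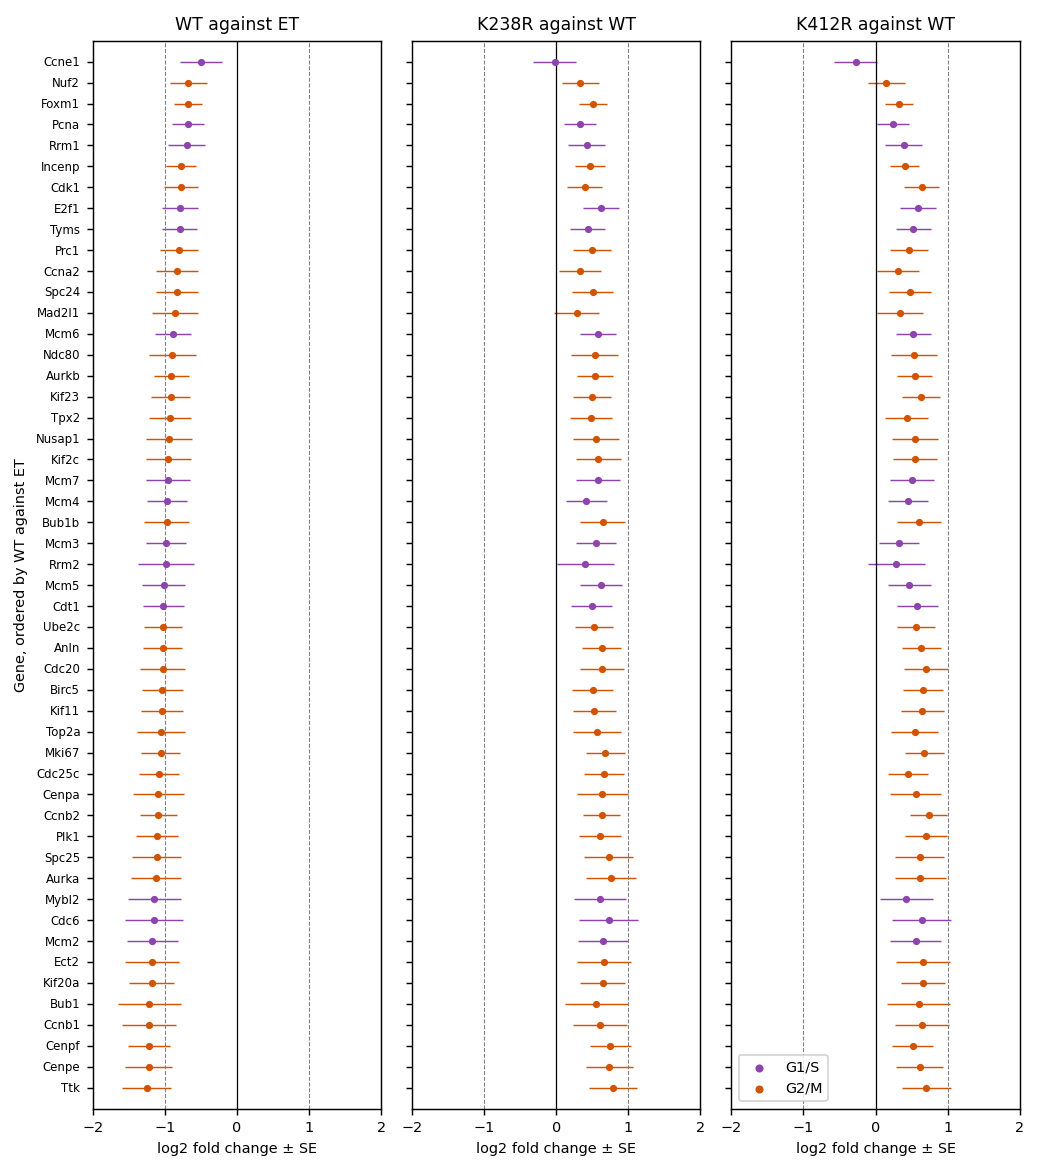
Log2 fold change (horizontal axis, ± SE) of each member in WT against ET, in the K238R-labelled libraries against WT and in K412R against WT, ordered by the first comparison, with G1/S genes in purple, G2/M genes in orange and dashed lines at 2-fold. All 50 points of the first panel lie left of 0 and 49 of 50 lie right of 0 in each of the other panels, where Ccne1 is the exception.

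The K238R-labelled and the K412R libraries were set against WT because of the substituted sites, but Dnmt3l transcript differed as well. It was lower than in WT in both, with log2 fold changes of -7.37 (adjusted p = 0.00251, edgeR) and -2.49 (adjusted p = 0.0367). The site and the amount of transcript therefore cannot be told apart. The K238R-labelled libraries held no more Dnmt3l transcript than ET did, so transcript with that site is not shown to be present in them. In the K238R-labelled libraries, 49 of 50 members lay above WT, with a median log2 fold change of 0.56 (0.00 over all genes). In K412R 49 of 50 also did, with a median of 0.55 (0.01 over all genes). Both comparisons use the same WT libraries as the comparison of WT with ET, so a low WT level enters all 3, and they are not independent of it or of each other. No member passed the adjusted threshold in either (0 of 50 with edgeR and 0 of 50 with DESeq2), where edgeR called 0.12% and 1.34% of all genes higher and DESeq2 1.73% and 4.2%. The lowest adjusted p values were 0.215 and 0.131. Unadjusted, edgeR gave 12 members a p under 0.05 in the K238R-labelled libraries, against 7.93% of all genes, and 11 in K412R, against 10.2%. DESeq2 gave 20 and 18, against 5.24% and 6.49% of the 31058 genes to which it gave a p-value. That set is wider than the 18405 genes of edgeR, so the shares of the 2 tools are not directly comparable. The edgeR counts went to 1 without WT replicate 2 (5.31% of all genes) and 0 without WT replicate 3 (4.11%) in the K238R-labelled libraries, and to 0 without either of them in K412R (7.19% and 6.17%). None was 2-fold higher, where 1.67% and 1.66% of all genes were.

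Mki67 was 0.68 higher in the K238R-labelled libraries than in WT on the log2 scale (SE 0.27, adjusted p = 0.231) and 0.68 higher in K412R (SE 0.27, adjusted p = 0.168). Cdk1, at 54.5, 32.3 and 39.2 CPM in the K238R-labelled libraries and 49.6, 51.2 and 49.2 in K412R, was 0.39 and 0.64 above WT, and its K412R libraries spanned a narrow range above all of WT. Plk1 was at 49.4, 28.6 and 36.5 and 41.5, 44.5 and 35.8 CPM, 0.61 and 0.70 above WT. Ccnb2, chosen after its values were seen, had the lowest adjusted p of the members in K412R against WT (0.131, log2 fold change 0.73, SE 0.26). Foxm1 had the lowest in the K238R-labelled libraries (0.215, log2 fold change 0.51, SE 0.19).

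Differences from WT were small for some genes of both phases. On the log2 scale, Nuf2 of G2/M was 0.34 above WT in the K238R-labelled libraries and 0.15 above it in K412R. Cdc6 of G1/S was 0.73 and 0.64 above. Pcna was 0.33 above WT in the K238R-labelled libraries and 0.25 above it in K412R, while E2f1 was 0.62 and 0.59 above. Ccne1 was the 1 member that was not above WT, at -0.02 (SE 0.30) and -0.27 (SE 0.30). Its sign depended on single libraries, since without WT replicate 1 these values became 0.28 and 0.03.

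K412R libraries lay close together, and for 24 of 50 members all 3 were above all 3 WT libraries, against 15.4% of all genes. These were Mcm6, Tyms, E2f1, Foxm1, Ccnb2, Cdk1, Mki67, Plk1, Aurka, Aurkb, Incenp, Birc5, Ttk, Ube2c, Cenpe, Cenpf, Kif11, Kif2c, Nusap1, Kif20a, Kif23, Prc1, Anln and Ect2. In the K238R-labelled libraries this held for Foxm1, Incenp and Ttk alone, 3 of 50 members against 11.4% of all genes.

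Leaving out libraries changed these counts too. With neither ET replicate 2 nor WT replicate 1, 29 members were called higher in the K238R-labelled libraries (5.84% of all genes) and 30 in K412R (7.95%). Without WT replicate 1 alone the medians were 0.87 and 0.84, with no member called in the K238R-labelled libraries and 2 in K412R, where 2.43% of all genes were called higher. In a fit of K412R and WT alone, 9 members were called higher (3.91% of all genes). Without replicate 1 of the K238R-labelled libraries, the median for that group was 0.35 and no member had an unadjusted p under 0.05.

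Against ET, the K238R-labelled and the K412R libraries had lower fitted means for all 50 members. The median log2 fold change was -0.42 in the K238R-labelled libraries and -0.46 in K412R (-0.02 over all genes in each), with 0 and 4 members at an unadjusted p under 0.05, against 3.09% and 3.53% of all genes lower. No member was called with edgeR or DESeq2, where edgeR called 0% of all genes in either comparison and DESeq2 0.029% and 0.473%. The 4 members in K412R were Mcm3, Ccne1, Cdc25c and Cenpf. Mcm3, Mybl2 and Ccne1 had every K412R library below every ET library, 3 of 50 members against 5.4% of all genes. These medians rested on ET replicate 3, and without it they were -0.09 and -0.12.

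The phases were set side by side by their medians, with no test between them and no member of either called. The WT against ET median was -0.97 for the 15 G1/S genes, of which 5 met the 2-fold criterion, and -1.03 for the 35 G2/M genes, of which 20 did. K412R against WT gave 0.47 for G1/S and 0.60 for G2/M, and the K238R-labelled libraries against WT gave 0.55 and 0.56. Within each library, the mean log2 CPM of the G2/M genes minus that of the G1/S genes, set to 0 at the ET mean, was 0.04, -0.08 and 0.04 in ET and -0.17, -0.05 and 0.08 in WT. It was 0.07, -0.08 and -0.01 in the K238R-labelled libraries and 0.07, -0.01 and 0.13 in K412R. The groups overlapped, with means of -0.05 ± 0.12 (SD, n = 3) in WT, -0.01 ± 0.07 in the K238R-labelled libraries and 0.07 ± 0.07 in K412R, so the balance of the phases moved by far less than their shared level. By promoter letters, the median log2 difference of WT from ET was -1.04 for the 27 members with a CHR and -0.91 for the 14 without. It was -0.98 for the 7 with E2F letters and -1.03 for the 34 without. Cdk1 and Mcm5 held both kinds of letters, and no difference was tested.

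**Figure D4:**
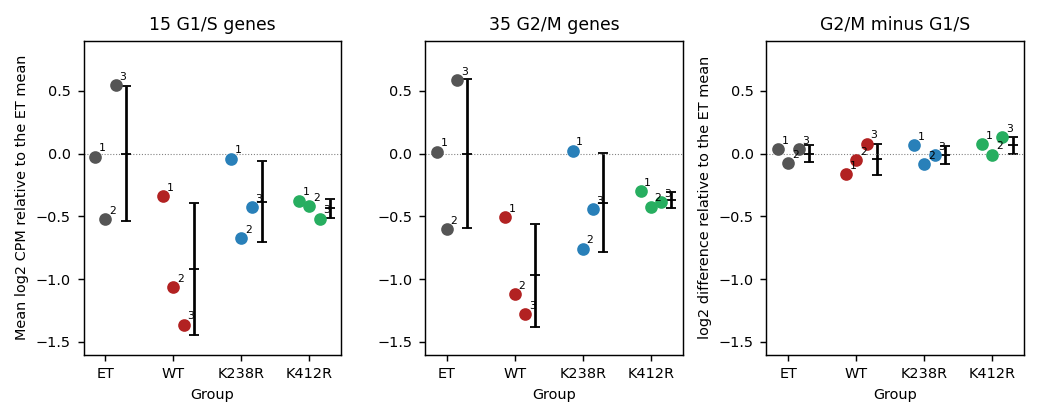
Mean log2 CPM of the 15 G1/S genes, of the 35 G2/M genes and their difference (vertical axes, relative to the ET mean), with 1 point per library labelled by replicate and bars for mean ± SD over 3 libraries. In each phase ET replicate 3 is the highest and WT replicate 3 the lowest, and the differences of the right panel stay within 0.17 of 0.

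Other genes of the cell cycle, listed separately by role, had smaller medians outside S phase and mitosis, with no test between the lists. Of 61 further mitosis genes, 59 had a lower mean in WT than in ET and 53 had an unadjusted p under 0.05, with a median log2 fold change of -0.89. Of 35 further replication genes all 35 had a lower mean, 27 with an unadjusted p under 0.05, and the median was -0.71. The 10 G1 cyclins and kinases had a median of -0.53, with 4 of 10 lower at an unadjusted p under 0.05. The 16 genes of the E2F, Rb and DREAM families had one of -0.44, with 9 of 16 lower at that p. None of them was called at the adjusted threshold with edgeR in any comparison with WT, whereas DESeq2 called 39 mitosis genes, 14 replication genes, 2 of the G1 list and 1 of the E2F list in WT against ET. Over all genes, DESeq2 called 6.08% lower and 15.1% were lower at an unadjusted p under 0.05 with edgeR, so the 1 of 16 in the E2F list is near the background. Against WT, the further mitosis genes had medians of 0.48 in the K238R-labelled libraries and 0.49 in K412R, and the further replication genes of 0.34 and 0.25.

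Genes of these lists that went the other way are named here after their values were seen. Zwint, a kinetochore gene with transcript in neurons as well, was at 294, 384 and 258 CPM in ET and 352, 410 and 460 in WT (log2 fold change 0.39, adjusted p = 0.147), and Cit, citron kinase, was at 0.11. Myc was at 0.17, and Rb1, Rbl2 and Lin37 at 0.04, 0.08 and 0.01. The 7 CDK inhibitors had no common direction, with lower fitted means for 4, higher for 3 and a median of -0.04 in WT against ET. The lowest was Cdkn2a, which encodes p16 and p19Arf, at 2.08, 0.877 and 1.75 CPM in ET and 0.778, 0.397 and 0.715 in WT (log2 fold change -1.31, SE 0.44, adjusted p = 0.114). Its WT libraries lay below its ET libraries, on 7 to 37 counts per library. Cdkn1a, which encodes p21, a target of p53 that halts the cycle, was at 35.7, 66.4 and 35.3 CPM in the ET libraries, 71.2, 83.3 and 85.4 in WT, 36.5, 57.4 and 41.1 in the K238R-labelled libraries and 52.4, 47.6 and 57.7 in K412R. All 3 WT libraries lay above the other 9, and the WT against ET log2 fold change was 0.81 (SE 0.23, adjusted p = 0.107). Against WT it was -0.83 in the K238R-labelled libraries (adjusted p = 0.127) and -0.61 in K412R (adjusted p = 0.158).

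Markers of the cell types that a teratoma can hold moved in some of the same libraries. Summed over 8 pluripotency genes, all with counts in every library, the level was 89.0, 94.1 and 213 CPM in ET and 91.0, 16.0 and 10.1 in WT. It was 85.4, 70.5 and 51.1 in the K238R-labelled libraries and 77.2, 77.7 and 59.4 in K412R. The highest library was ET replicate 3 and the lowest were WT replicates 2 and 3, as for the cell cycle genes, and 8 of 8 had a lower mean in WT than in ET (median -1.97). The 8 germ cell genes, also with counts in every library, ranged from 23.0 to 75.9 CPM in ET, from 13.2 to 22.2 in WT, from 36.6 to 41.9 in the K238R-labelled libraries and from 26.0 to 30.3 in K412R.

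Skeletal muscle and neuron markers went the other way. The 8 skeletal muscle genes, with counts in every library, came to 509, 549 and 189 CPM in the ET libraries, 427, 3662 and 2113 in WT, 610, 868 and 34.1 in the K238R-labelled libraries and 260, 264 and 239 in K412R. High muscle signal was found in the WT libraries with the lowest cell cycle genes. The 8 neuron genes summed to 2375 to 2952 CPM in ET, 2755 to 3998 in WT, 2863 to 3407 in the K238R-labelled libraries and 2119 to 2568 in K412R. The sum of the 8 neural progenitor genes varied little, between 1568 and 2192 CPM over the 12 libraries. The single genes did not move together. In WT against ET, 5 had a lower and 3 a higher fitted mean, with log2 fold changes from -0.72 to 0.43. The share of the cell cycle difference that goes with these tissues was not tested.

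Of the remaining lists, medians of WT against ET were -0.26 for cartilage (7 of 8 tested), 0.89 for keratinocytes, -0.12 for gut epithelium (7 of 8 tested), 0.54 for ciliated cells, 0.49 for endothelium, 0.07 for macrophages and 0.84 for erythroid cells (5 of 8 tested). Of the marker genes, Cnmd of cartilage passed the adjusted threshold with edgeR, lower in WT than in ET and higher than WT in both other groups. Only in K412R against WT, Elavl3 of neurons was called lower and Dnah9 of ciliated cells higher. Over all genes, 0.0435% were called lower in WT than in ET. Against WT, 0.12% were called higher in the K238R-labelled libraries and 1.34% in K412R, where 128 of 18405 genes were called lower.

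**Figure D5:**
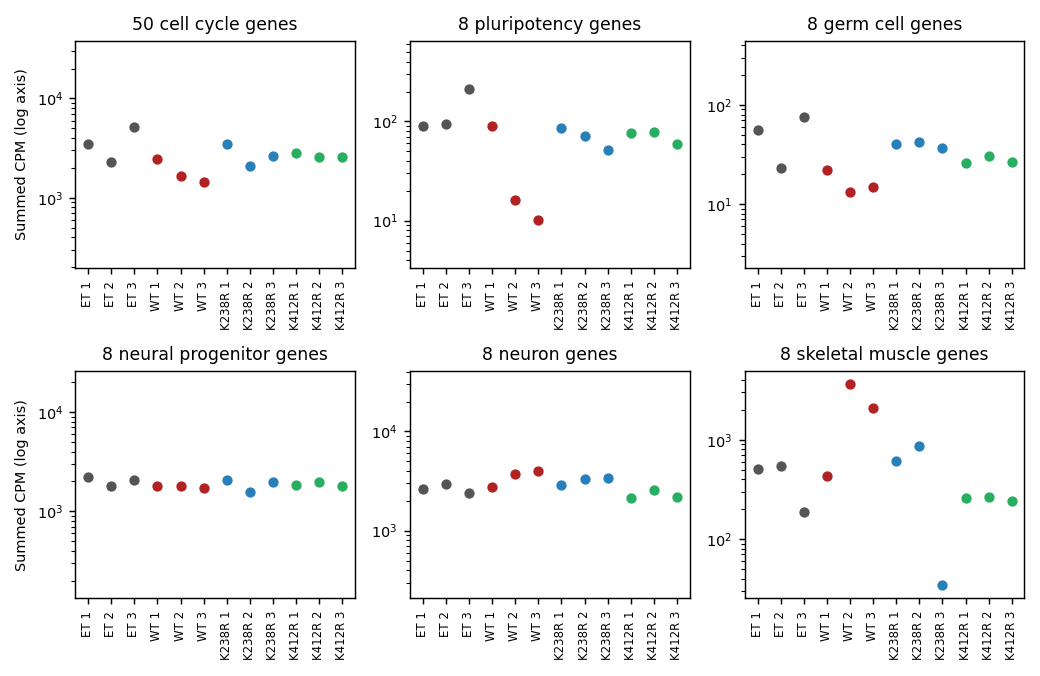
Summed CPM (vertical log axis, with the same span in each panel) of the 50 cell cycle genes and of 5 lists of 8 marker genes in each of the 12 libraries, coloured by group. The pluripotency sum is lowest in WT replicates 2 and 3 (16.0 and 10.1 CPM), where the skeletal muscle sum is highest (3662 and 2113 CPM).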

How the data were processed

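RNA from teratomas was sequenced by the authors with the CORALL kit as 12 libraries (4 groups of 3). The submitters' processing notes name fastp, STAR, Salmon, GATK and the build GRCm39. The authors deposited 1 estimated count per gene and library, as whole numbers without normalization. How molecular identifiers were used is not given in the sources used here.

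Counts were tested with edgeR 4.0.16 in R 4.3.3 (TMM scaling, filterByExpr by group, robust quasi-likelihood test, Benjamini-Hochberg adjustment over 18405 genes, threshold 0.05), with 1 mean per group over all 12 libraries. DESeq2 1.42.0, which the study's methods name, was an alternative, as were other size factors, no filter, the 2 groups alone, a replicate block, each library left out in turn, and neither ET replicate 2 nor WT replicate 1. CPM were computed on TMM library sizes and are not per gene length, so levels were compared only between libraries. Total counts of about the same size in all libraries put members well above the counting floor, and the number of teratomas limits precision.

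The members, their roles and phases, the named genes and the lists (5 of cell cycle genes and 12 of 8 cell type markers) were chosen with earlier results of these data known. Members described library by library were fixed by name, with the 3 lowest and 3 highest members of WT against ET and those next to the 2-fold criterion. Mcm3, Ccnb2 and the genes named from other lists fall outside this rule and were picked with their values known. The labels name each library by group and number and do not say whether the libraries of a group came from separate teratomas. The libraries are treated here as separate teratomas, and p-values rest on the spread between libraries within groups. All 4 groups share 1 estimate of it per gene, so it is not the spread of the 2 groups compared alone. The spread of the members' mean log2 CPM differed between groups, with an SD of 0.57 in ET and 0.06 in K412R. The spread between libraries does not cover separately made cells with the same construct. Whether samples with the same number share anything beyond it is not given. Coordinates are those of the RefSeq table in GRCm38.p6, not the build of the counts.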

Additional observations from a re-analysis of the deposited data

How the results depend on the processing

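Median differences kept their sign under all 18 alternatives in each of the 5 comparisons, but counts of called members changed in 4 of them and stayed at 0 only in the K238R-labelled libraries against ET. In WT against ET, where edgeR called 0, DESeq2 called 43, the replicate block 11 (2.31% of all genes lower) and the fit with neither ET replicate 2 nor WT replicate 1 called 50. Leaving out single libraries gave 0 to 49, with 49 without ET replicate 2 and 36 without WT replicate 1, and medians from -1.28 to -0.67. For the K238R-labelled libraries against WT, 29 were called with neither of these libraries, and with single libraries left out the medians lay between 0.35 and 0.87. For K412R against WT, 9 were called in the fit of the 2 groups alone, 1 with the replicate block (2.73% of all genes higher) and 30 with neither library, while leaving out single libraries gave 0 to 2 and medians from 0.38 to 0.84. K412R against ET gave 1 with neither library (0.9% of all genes lower), and medians against ET with single libraries left out lay between -0.67 and -0.09 for the K238R-labelled libraries and between -0.65 and -0.12 for K412R. The cause of these changes was not tested.

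Deviations of same-numbered libraries from their group means had correlations from -0.26 to 0.39 over the pairs. What a shared number stands for is not given, so what the replicate block takes out is unknown. Ccne1 changed sign against WT. In the K238R-labelled libraries it was 0.28 without WT replicate 1, 0.13 and 0.03 without replicates 2 or 3 of that group and 0.28 with neither library, and over single libraries left out it ranged from -0.24 to 0.28. In K412R it was 0.027 without WT replicate 1 and 0.016 with neither, and ranged from -0.45 to 0.027. Of the other values for named members, 1216 stayed on the same side of the threshold and 128 passed it under an alternative only. No member had fewer than 57 estimated counts in any library.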
